A study of Mus musculus with 9 samples.

Results

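Glycolysis and hypoxia-responsive genes were followed in MNPs@SiO2(RITC)-treated BV2 cells as a set of 41 genes, chosen by name and function out of the 40993 genes of the deposited table. The set holds 3 transporters of glucose and lactate, 17 glycolytic enzymes, 5 regulators of glycolytic and pyruvate flux, 6 genes of the hypoxia-inducible factor (HIF) machinery and 10 hypoxia targets outside glycolysis. BV2 cells are a mouse microglial line kept dividing by viral oncogenes, and MNPs@SiO2(RITC) are nanoparticles whose cobalt ferrite core sits in a silica shell with the dye rhodamine B isothiocyanate (RITC). Sequenced libraries came from BV2 cells that received 10 µg/ml of the particles for 12 h (3 libraries), 100 µg/ml for 12 h (3 libraries) or no particles (non-treated control, 3 libraries). The sample labels write these doses as 0.01 and 0.1 µg/µl. All 9 libraries are of the same cell line, and cells under low oxygen, cells given a cobalt salt and cells given particles without the core were not analysed here. The comparison asked how glycolytic enzymes and other hypoxia targets moved at each dose of a particle that contains cobalt.

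Glycolysis splits glucose into pyruvate in the cytosol, and lactate dehydrogenase turns pyruvate into lactate, which leaves the cell through monocarboxylate transporters. HIF-1 is a pair of proteins, HIF-1α (Hif1a) and ARNT (Arnt). When oxygen is plentiful, prolyl hydroxylases (Egln1, Egln2) mark HIF-1α for the ubiquitin ligase that contains VHL, and the protein is degraded, so the level of Hif1a mRNA does not report the level of the protein. Hypoxia, and also cobalt ions, are known to stabilise HIF-1α, which then raises the transcription of many glycolytic genes and of targets such as Vegfa, Bnip3 and Ndrg1. Activated macrophages and microglia are known for high glycolytic rates.

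Both marker genes of the set were expressed, Ldha at a mean of 1691 FPKM over the 9 libraries and Vegfa at 26.7 FPKM. FPKM is the number of fragments per transcript length and per mapped fragments of the library, so that levels can be set side by side between genes. Of 15 microglial marker genes, 10 had a mean of at least 1 FPKM, among them Csf1r, Itgam, Cd68, Trem2 and Tyrobp, while Cx3cr1, P2ry12, Sall1, Siglech and Fcrls were below 1 FPKM. Summed over the list, these markers lay between 1148 and 1336 FPKM in control cells, between 1162 and 1237 FPKM at 10 µg/ml and between 1079 and 1235 FPKM at 100 µg/ml. Markers of astrocytes, neurons, oligodendrocytes, fibroblasts and T cells did not pass 1.40 FPKM in any library, and of 4 endothelial markers only Kdr was expressed (highest value 74.6 FPKM). The depth, estimated from the steps between low FPKM values, was between 12.3 and 15.1 M (mega) fragments per library. The origin of the 3 libraries of a group from separate cultures is not stated, so p-values measure the spread between these libraries, which may be technical. Replicate 1 at 100 µg/ml stood apart from the other 8 libraries, since its genes with short transcripts were high and those with long transcripts were low relative to control cells. The median log2 deviation of genes with transcripts under 1500 nt minus that of genes with transcripts over 6000 nt was 0.41 in this library and between -0.17 and 0.09 in the other 8, and results that rest on this library are given with and without it.

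HIF binds DNA at a short core that reads ACGTG or GCGTG, and both spellings were searched on both strands of RefSeq promoter sequences (GRCm38.p6), in windows from 250 bases before to 50 bases after each start site. Of the 41 genes, 39 had a window, and 35 of these (89.7%) held at least 1 match. A match was found for 46.7% of all 27025 genes with a window and for 70.0% of the 7814 genes with a window among those tested for expression. The palindrome CACGTG, the E-box read by MYC and its relatives, contains ACGTG on both strands and was found for 9 of the 39 genes (23.1%), for 8.09% of all genes and for 12.6% of the genes tested for expression. The 250 bases before the start site are given for 4 genes, namely Hk2, which fell at 100 µg/ml, Slc16a1, which rose, and the markers Ldha and Vegfa, neither of which passed the test at either dose. Capitals mark each match of either core on either strand, and CACGTG where the core lies inside it. The windows are chr6:82774455-82774704 on the minus strand for Hk2, chr3:104638414-104638663 on the plus strand for Slc16a1, chr7:46845554-46845803 on the plus strand for Ldha and chr17:46032378-46032627 on the minus strand for Vegfa. None of them overlaps an annotated exon of its gene in GENCODE M21.
Hk2: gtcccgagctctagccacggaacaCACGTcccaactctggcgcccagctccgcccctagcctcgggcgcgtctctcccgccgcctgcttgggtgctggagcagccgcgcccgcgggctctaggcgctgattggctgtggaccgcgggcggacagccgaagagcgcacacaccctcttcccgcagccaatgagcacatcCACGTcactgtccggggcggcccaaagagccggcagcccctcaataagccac
Slc16a1: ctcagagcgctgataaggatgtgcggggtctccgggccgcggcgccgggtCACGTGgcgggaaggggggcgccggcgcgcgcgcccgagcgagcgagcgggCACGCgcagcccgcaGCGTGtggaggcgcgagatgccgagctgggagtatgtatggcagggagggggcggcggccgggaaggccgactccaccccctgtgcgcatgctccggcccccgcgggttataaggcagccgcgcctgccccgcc
Ldha: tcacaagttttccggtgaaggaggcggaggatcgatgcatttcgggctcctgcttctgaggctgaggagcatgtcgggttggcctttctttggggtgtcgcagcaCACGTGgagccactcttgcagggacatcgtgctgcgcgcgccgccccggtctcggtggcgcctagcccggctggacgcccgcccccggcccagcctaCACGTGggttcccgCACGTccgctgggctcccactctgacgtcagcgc
Vegfa: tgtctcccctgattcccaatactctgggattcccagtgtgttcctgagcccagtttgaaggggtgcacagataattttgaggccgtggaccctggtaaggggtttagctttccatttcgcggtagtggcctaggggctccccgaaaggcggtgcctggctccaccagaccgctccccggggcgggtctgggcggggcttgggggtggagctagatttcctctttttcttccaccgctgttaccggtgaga
Counted back from the start site, with -1 as the base before it and each match given by its leftmost base, the Hk2 window held ACGTG at -226 and -52. The Slc16a1 window held a CACGTG whose cores begin at -200 and -199, and GCGTG at -149 and -134. The Ldha window held CACGTG with cores at -145 and -144 and again at -48 and -47, and a further ACGTG at -34. The Vegfa window held no match of either core, while a window before a second RefSeq start of Vegfa held matches at -218 and -211. Of the 250 bases of that second window, 218 lie in annotated exons of Vegfa. These matches describe the letters in the windows and are no evidence of binding, and bases outside the windows were not searched.

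In control cells the set ranged from genes at 0 to the most abundant enzymes of the glycolytic chain. Ldha, the lactate dehydrogenase A subunit, and Pkm, pyruvate kinase, were above 1000 FPKM on average, and 10 of the 41 genes were above 100 FPKM. Each isoenzyme family was led by 1 or a pair of genes. Hk3 and Hk2 carried 46.3% and 43.0% of hexokinase FPKM in control cells and Hk1 10.8%. Pfkp carried 57.0% of phosphofructokinase FPKM, Aldoa 97.5% of the FPKM of the 2 aldolases measured, Pdk1 89.9% of that of 3 pyruvate dehydrogenase kinases and Pfkfb3 64.0% of that of the pair Pfkfb3 and Pfkfb4. Ldhb, the other main lactate dehydrogenase subunit, was listed at 0 in all 9 libraries. Slc16a3, which encodes the lactate exporter MCT4 and is a known hypoxia target, reached at most 0.554 FPKM, against a lowest value of 139.8 FPKM for Slc16a1, which encodes MCT1. P4ha2, a collagen prolyl hydroxylase, and Pdk2 were also below 1 FPKM in every library (at most 0.198 and 0.444 FPKM). These 4 genes, Ldhb, Slc16a3, P4ha2 and Pdk2, did not pass the filter of a mean of 1 FPKM, and 37 genes of the set were tested.

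At 100 µg/ml, 3 of the 37 genes differed from control cells at an adjusted p under 0.05 in limma. Slc16a1 rose, and Hk2 and Ndrg1 fell. By this rule 2.11% of all 11161 genes tested were called (0.708% higher and 1.41% lower). The unadjusted p was under 0.05 for 9 genes of the set and for 19.4% of all genes tested. The 3 treated libraries lay on one side of the 3 control libraries for 10 of the 37 genes, 4 higher and 6 lower, where 23.8% of all genes tested did so (12.5% higher and 11.4% lower). The log2 fold change was within 0.2 of 0 for 33 of the 37 genes (89.2%), against 76.0% of all genes tested. These shares are not matched for level, since only 4 of the 37 had a mean under 10 FPKM, while all genes from a mean of 1 FPKM were tested.

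**Figure D1:**
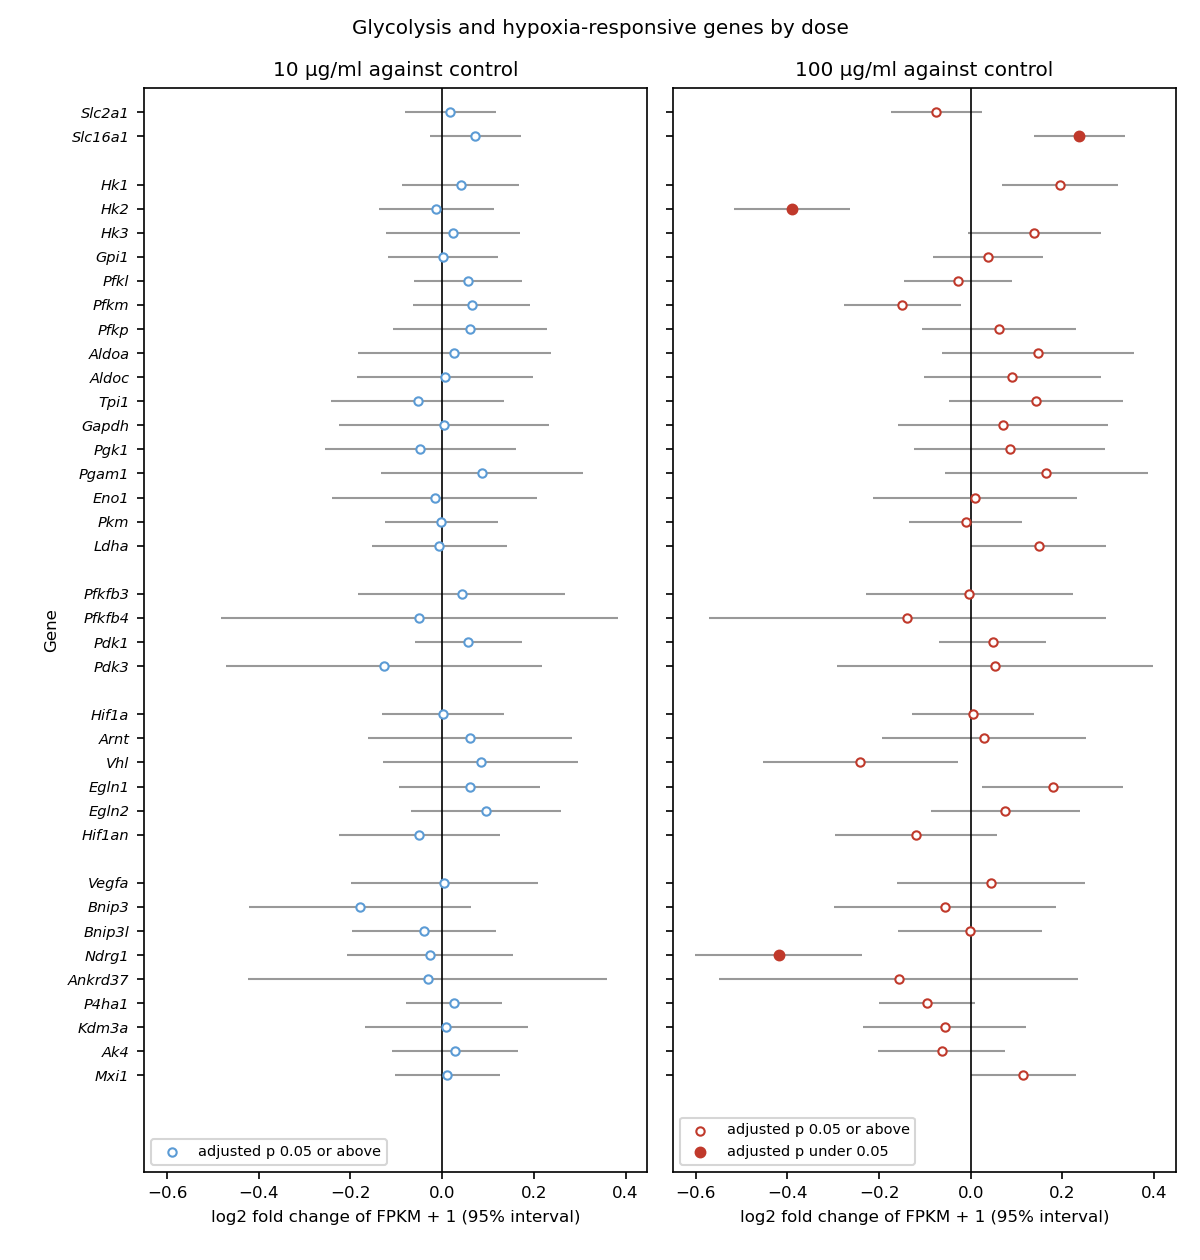
Log2 fold change of FPKM + 1 against control cells at 10 µg/ml (left) and 100 µg/ml (right) for the 37 genes tested, grouped from top to bottom as transporters, glycolytic enzymes, flux regulators, HIF machinery and non-glycolytic hypoxia targets. Points are estimates from limma, lines are 95% intervals and filled points have an adjusted p under 0.05. At 100 µg/ml Slc16a1 is filled at 0.24, Hk2 at -0.39 and Ndrg1 at -0.42, and at 10 µg/ml no point is filled.

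The largest fall among the glycolytic enzymes at 100 µg/ml, and the only one called, was that of Hk2 (ENSMUSG00000000628, chr6:82725025-82774454 on the minus strand). Hk2 is the hexokinase that feeds glucose into glycolysis in many proliferating cells and a known HIF target. Its level was 69.3, 71.2 and 71.7 FPKM in the control libraries, 72.4, 70.5 and 67.4 FPKM at 10 µg/ml, and 50.2, 55.7 and 55.5 FPKM at 100 µg/ml. All 3 libraries at 100 µg/ml were below the other 6, and the libraries at 10 µg/ml overlapped the controls. The mean fell from 70.7 ± 1.27 (SD, n = 3) to 53.8 ± 3.11 FPKM (SD, n = 3). On the log2 scale this was -0.39 with a standard error of 0.06 (adjusted p = 0.0132 in limma with Benjamini-Hochberg adjustment). In RNA of whole cultures, less of a transcript in every cell and fewer cells that carry it cannot be told apart. Against 10 µg/ml the log2 fold change was -0.38 (adjusted p = 0.0249 in limma), which made Hk2 the only gene of the set called between the doses. The call against control cells was lost in limma without control replicate 1, 2 or 3 (adjusted p = 0.0536, 0.0718 and 0.0510) and when only the 6 libraries compared were fitted (adjusted p = 0.0748), while the log2 fold change stayed between -0.42 and -0.34 over all 19 alternatives. The call against 10 µg/ml was kept in 9 of the alternatives and lost, among others, in each fit without 1 library other than replicate 1 at 100 µg/ml (adjusted p between 0.0507 and 0.127 in limma).

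The other hexokinases did not follow Hk2. Hk1, the hexokinase found in most tissues, was at 18.0, 18.3 and 16.9 FPKM in control cells, 18.9, 18.0 and 17.9 FPKM at 10 µg/ml, and 19.6, 21.2 and 20.5 FPKM at 100 µg/ml. Its 3 values at 100 µg/ml were above all others, with a log2 fold change of 0.20 that missed the threshold (adjusted p = 0.109 in limma) and passed it with a correction for GC content and transcript length (adjusted p = 0.0481), under which 7.34% of all genes were called. Hk3, a hexokinase of myeloid cells, was at 72.2, 78.4 and 78.0 FPKM in control cells, 78.2, 78.4 and 75.7 FPKM at 10 µg/ml, and 85.1, 90.0 and 77.2 FPKM at 100 µg/ml, where replicate 3 lay inside the control range (log2 fold change 0.14, adjusted p = 0.280 in limma). The share of Hk2 in the summed FPKM of the 3 genes was 43.4%, 42.4% and 43.0% in the control libraries, 42.7%, 42.3% and 41.9% at 10 µg/ml, and 32.4%, 33.4% and 36.2% at 100 µg/ml. This share was 43.0 ± 0.527% (SD, n = 3) in control cells and 34.0 ± 1.97% (SD, n = 3) at 100 µg/ml, a difference of -8.97 percentage points (exact two-sided permutation test, p = 0.1, the smallest p that 3 against 3 libraries allow). The share of Hk3 was 46.3 ± 0.865% in control cells and 53.1 ± 2.38% at 100 µg/ml (SD, n = 3 each), which is not a separate result, since the shares add up to the whole and the share of Hk2 was lower. Summed hexokinase FPKM overlapped between the groups, with means of 165 ± 4.53 and 158 ± 7.46 FPKM (SD, n = 3 each, exact two-sided permutation test, p = 0.3).

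**Figure D2:**
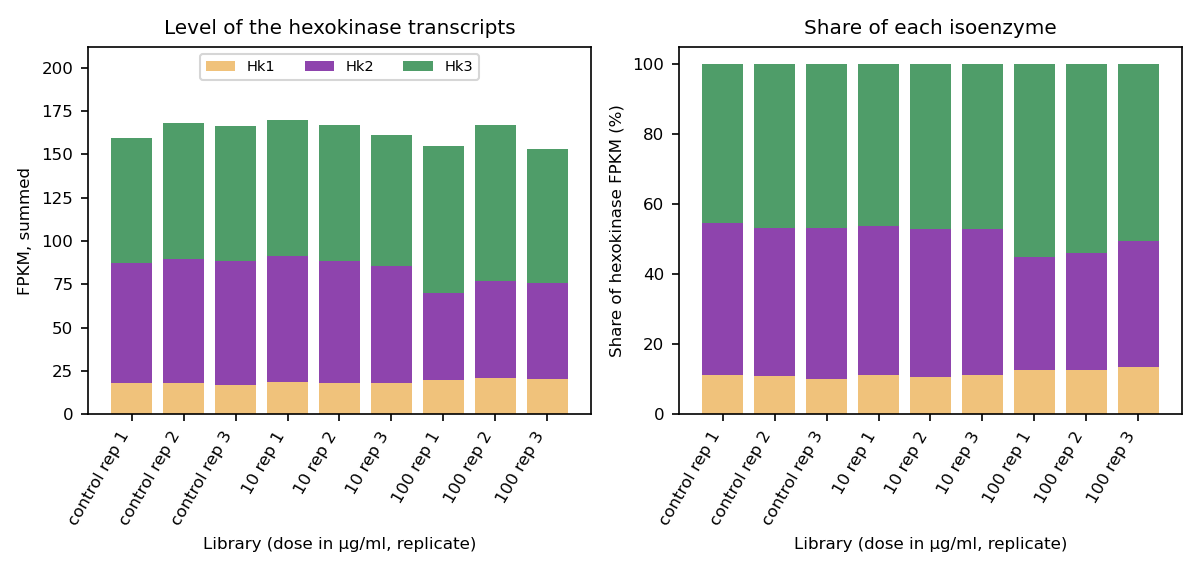
FPKM of Hk1, Hk2 and Hk3 stacked for each of the 9 libraries (left) and the share of each gene in their sum in percent (right). Bars are single libraries. The Hk2 share lies between 41.9% and 43.4% in the 6 control and 10 µg/ml libraries and between 32.4% and 36.2% in the 3 libraries at 100 µg/ml.

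Of the transporters, Slc16a1 (ENSMUSG00000032902, chr3:104638668-104658462 on the plus strand) moved the other way. Its product MCT1 carries lactate and pyruvate together with a proton across the plasma membrane. The level was 139.8, 141 and 144.8 FPKM in control cells, 145.1, 151 and 152 FPKM at 10 µg/ml, and 171, 166 and 165 FPKM at 100 µg/ml. The groups did not overlap in either comparison with control cells, and the order of the means followed the dose. The rise to 100 µg/ml was 0.24 on the log2 scale (standard error 0.04, adjusted p = 0.0320 in limma), and the step to 10 µg/ml was 0.07 (95% interval -0.03 to 0.17, adjusted p = 1 in limma). The call at 100 µg/ml was lost without control replicate 1, 2 or 3 (adjusted p = 0.126, 0.135 and 0.0693 in limma), without replicate 1, 2 or 3 at 10 µg/ml (0.0535, 0.0621 and 0.0600), without replicate 2 or 3 at 100 µg/ml (0.0651 and 0.0818), with only the 6 libraries compared (0.105) and with eBayes without the trend (0.0539). Its log2 fold change stayed between 0.22 and 0.28 in all 19 alternatives. Slc2a1, which encodes the glucose transporter GLUT1, a known HIF target, was at 135, 138 and 130.0 FPKM in control cells, 138, 133 and 138 FPKM at 10 µg/ml, and 128, 126 and 128 FPKM at 100 µg/ml. The 3 libraries at 100 µg/ml were below the controls, by a log2 fold change of -0.08 (95% interval -0.17 to 0.02) that did not pass the test (adjusted p = 0.394 in limma).

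**Figure D3:**
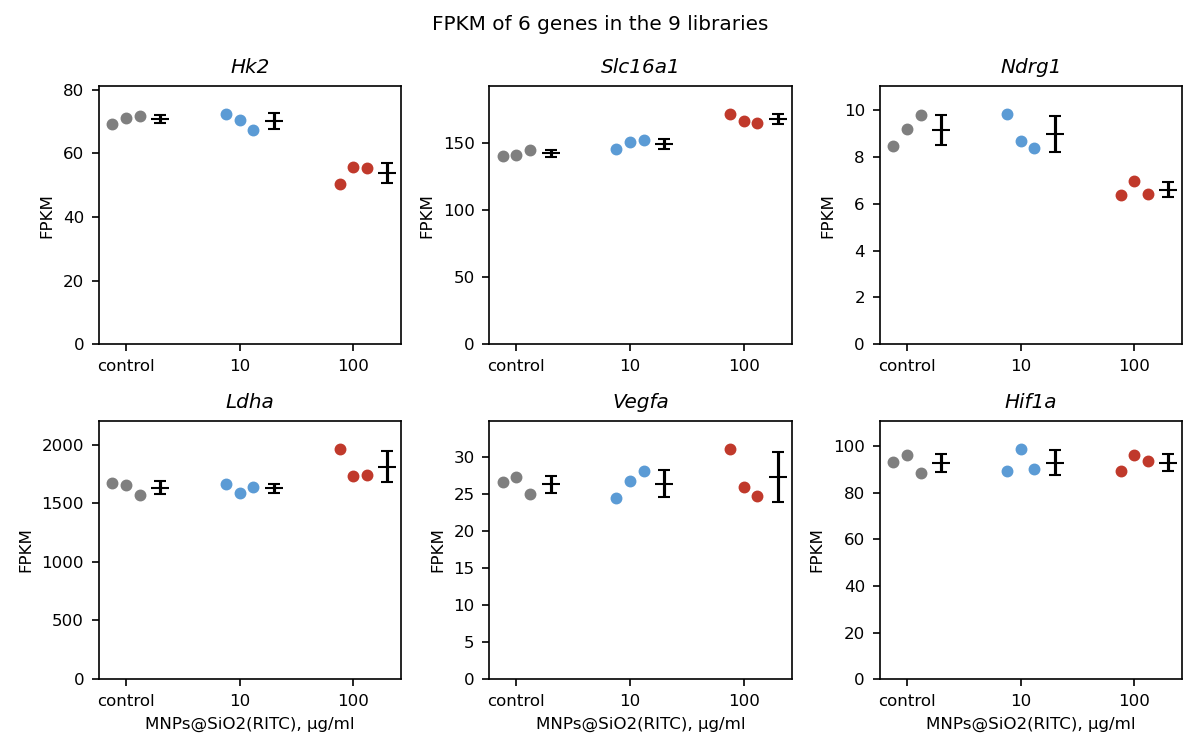
FPKM of Hk2, Slc16a1, Ndrg1, Ldha, Vegfa and Hif1a in the 3 libraries of each group (points), with the mean and SD beside them (bars), on axes that start at 0. For Hk2 and Ndrg1 the 3 points at 100 µg/ml are below the other 6, for Slc16a1 and Ldha they are above the other 6, and for Vegfa and Hif1a the groups overlap.

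Below the hexokinase step, the glycolytic enzymes did not pass the test at either dose. Ldha (ENSMUSG00000063229, chr7:46841475-46855627 on the plus strand) was at 1675, 1652 and 1574 FPKM in control cells, 1659.7, 1585 and 1635 FPKM at 10 µg/ml, and 1966, 1735 and 1737 FPKM at 100 µg/ml. The 3 libraries at 100 µg/ml were the highest of the 9, and replicate 1 was far above the other pair. The log2 fold change was 0.15 (95% interval 0.0015 to 0.29, adjusted p = 0.255 in limma). It was 0.09 without replicate 1 at 100 µg/ml and 0.34 after quantile normalization, without passing the test in either. With the correction for GC content and length it passed (0.15, adjusted p = 0.0415 in limma), the only 1 of the 19 alternatives in which it did. Over the same alternatives the log2 fold change of Ldha at 10 µg/ml lay between -0.03 and 0.17. Pfkm, the muscle type phosphofructokinase and a minor member of its family here, was at 11.3, 12.3 and 11.5 FPKM in control cells, 12.4, 12.0 and 12.5 FPKM at 10 µg/ml, and 10.8, 10.5 and 10.1 FPKM at 100 µg/ml. Its libraries at 100 µg/ml were below all others, but the log2 fold change of -0.15 did not pass the test (adjusted p = 0.195 in limma). Pfkp, the platelet type and the most abundant of the 3 phosphofructokinases, was at 152, 144 and 145 FPKM in control cells, 152, 155 and 153 FPKM at 10 µg/ml, and 138, 172 and 152 FPKM at 100 µg/ml, with replicates of the highest dose both below and above all other libraries. Pkm, which forms pyruvate, changed by -0.01 on the log2 scale at 100 µg/ml (95% interval -0.13 to 0.11, adjusted p = 0.929 in limma).

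Several enzymes of the middle of the pathway had their highest value in replicate 1 at 100 µg/ml, well above the other libraries of that dose. Aldoa, the main aldolase, was at 839.8, 827 and 831 FPKM in control cells, 861, 812 and 872 FPKM at 10 µg/ml, and 1084, 832 and 869 FPKM at 100 µg/ml. Tpi1, triosephosphate isomerase, was at 437, 428 and 442 FPKM in control cells, 429, 408 and 422 FPKM at 10 µg/ml, and 555, 435 and 461 FPKM at 100 µg/ml, where it overlapped the controls and lay above the libraries at 10 µg/ml (log2 difference between the doses 0.20, adjusted p = 0.334 in limma). Pgk1, phosphoglycerate kinase, reached 96.6 FPKM in replicate 1 at 100 µg/ml and lay between 71.9 and 80.3 FPKM in the other 8 libraries. Of the 16 glycolytic enzymes tested, 9 (56.3%) had their highest value of the 9 libraries in this replicate, against 26.8% of all genes tested. By the longest annotated transcript of each gene, the glycolytic enzymes have a median length of 2832.5 nt. By the same measure Aldoa, Tpi1, Pgk1, Pgam1, Eno1 and Ldha are between 1549 and 2027 nt. With the correction for GC content and transcript length, the log2 fold change at 100 µg/ml went from 0.15 to 0.11 for Aldoa and from 0.14 to 0.13 for Tpi1, and without replicate 1 it was 0.03 and 0.04.

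As a list, the 16 glycolytic enzymes tested had a median log2 fold change of 0.08 at 100 µg/ml, with 12 above and 4 below 0, beside a median of -0.0016 over all genes tested. Without replicate 1 at 100 µg/ml the median was 0.01, with 8 above and 8 below 0. The median deviation of the list from control cells was 0.15 in replicate 1 and 0.0016 and -0.0039 in replicates 2 and 3 at this dose. The summed FPKM of the 17 enzymes was 5561, 5465 and 5411 in control cells, 5531, 5341 and 5578 at 10 µg/ml, and 6375, 5518 and 5585 at 100 µg/ml. In this sum replicate 1 at 100 µg/ml stood above the other 8 libraries, which ranged from 5341 to 5585 FPKM. Each of the 15 enzymes that were not called had a 95% interval inside 0.5 on the log2 scale, and the bounds reached from -0.28 to 0.39.

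**Figure D4:**
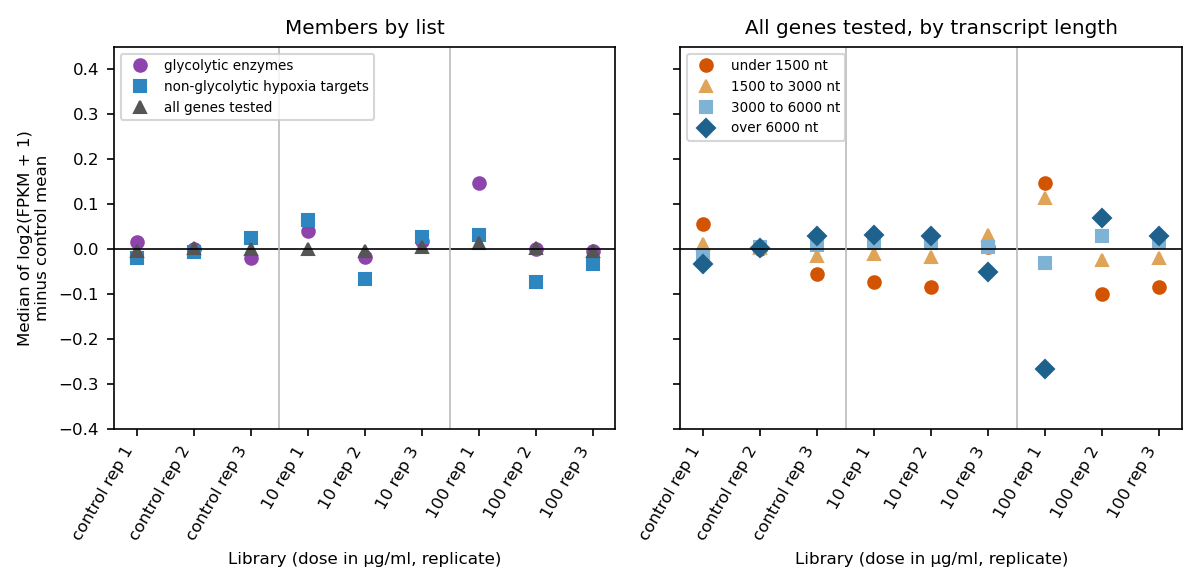
Median deviation of log2(FPKM + 1) from the control mean in each library, for glycolytic enzymes, non-glycolytic hypoxia targets and all genes tested (left) and for all genes tested by transcript length (right). Points are medians over genes. Replicate 1 at 100 µg/ml is at 0.15 for the glycolytic enzymes, at 0.15 for transcripts under 1500 nt and at -0.27 for transcripts over 6000 nt, and no other library is above 0.05 for the glycolytic enzymes.

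The regulators of flux did not pass the test at either dose. Pdk1, the pyruvate dehydrogenase kinase that HIF-1 is known to raise and that keeps pyruvate out of mitochondria, was at 75.9, 77.9 and 73.3 FPKM in control cells, 82.5, 77.2 and 76.6 FPKM at 10 µg/ml, and 81.0, 75.8 and 78.1 FPKM at 100 µg/ml. Pfkfb3, whose product makes the activator of phosphofructokinase fructose 2,6-bisphosphate, was at 19.4, 19.4 and 20.8 FPKM in control cells, 20.7, 21.5 and 19.3 FPKM at 10 µg/ml, and 16.8, 20.4 and 22.7 FPKM at 100 µg/ml. In both genes the groups overlapped. The intervals of Pfkfb4 (-0.57 to 0.29 at 100 µg/ml) and Pdk3 (-0.29 to 0.40) were wide, so changes of that size could not be detected for them.

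The HIF machinery showed no call at either dose. Hif1a was at 93.4, 96.1 and 88.6 FPKM in control cells, 89.2, 99.0 and 90.3 FPKM at 10 µg/ml, and 89.2, 96.1 and 93.6 FPKM at 100 µg/ml. Its groups overlapped, with log2 fold changes of 0.0014 at 10 µg/ml (95% interval -0.13 to 0.13) and 0.0044 at 100 µg/ml (-0.13 to 0.14). Vhl, the substrate receptor of the ligase that marks HIF-1α for degradation, was at 8.10, 6.67 and 7.46 FPKM in control cells, 7.11, 7.82 and 8.84 FPKM at 10 µg/ml, and 6.43, 6.03 and 5.85 FPKM at 100 µg/ml, below all other libraries. Its log2 fold change of -0.24 did not pass the test (unadjusted p = 0.0309, adjusted p = 0.208 in limma). Egln1, the main HIF prolyl hydroxylase and itself a HIF target, was at 19.9, 20.02 and 22.4 FPKM in control cells, 22.5, 21.4 and 21.1 FPKM at 10 µg/ml, and 25.2, 22.2 and 23.5 FPKM at 100 µg/ml, with 1 treated library inside the control range (log2 fold change 0.18, unadjusted p = 0.0278, adjusted p = 0.199 in limma). Egln2, a second prolyl hydroxylase, was at 16.2, 15.5 and 16.2 FPKM in control cells, 18.0, 17.1 and 16.4 FPKM at 10 µg/ml, and 18.3, 17.3 and 15.2 FPKM at 100 µg/ml. Hif1an, the asparagine hydroxylase that blocks the activity of HIF-1α, was at 22.1, 22.6 and 22.7 FPKM in control cells, 21.5, 21.6 and 21.9 FPKM at 10 µg/ml, and 18.0, 22.7 and 21.3 FPKM at 100 µg/ml. At 10 µg/ml Egln2 was above and Hif1an below all controls, while at 100 µg/ml both overlapped them.

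Among the hypoxia targets outside glycolysis, Ndrg1 (ENSMUSG00000005125, chr15:66929321-66969640 on the minus strand), a stress-responsive gene that is induced by hypoxia in many cells, was the only one called. It was at 8.49, 9.22 and 9.80 FPKM in control cells, 9.86, 8.70 and 8.41 FPKM at 10 µg/ml, and 6.40, 6.97 and 6.44 FPKM at 100 µg/ml. The 3 libraries at 100 µg/ml were below the other 6. The log2 difference was -0.42 (standard error 0.08, adjusted p = 0.0366 in limma), and against 10 µg/ml it was -0.39 (adjusted p = 0.0749). At the estimated depth the mean level stands for about 453 fragments per library. The call was lost without control replicate 1, 2 or 3 (adjusted p = 0.0778, 0.145 and 0.110 in limma), without replicate 2 or 3 at 10 µg/ml (0.0680 and 0.0583), without replicate 2 or 3 at 100 µg/ml (0.0642 and 0.114), with only the 6 libraries compared (0.100) and without the filter on low values (0.0662), and the log2 fold change stayed between -0.47 and -0.37.

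Vegfa (ENSMUSG00000023951, chr17:46016993-46032377 on the minus strand), the angiogenic factor that is the textbook target of HIF-1, was at 26.6, 27.3 and 25.04 FPKM in control cells, 24.5, 26.7 and 28.1 FPKM at 10 µg/ml, and 31.2, 25.9 and 24.7 FPKM at 100 µg/ml. The groups overlapped, and the highest value was again that of replicate 1 at 100 µg/ml. The log2 fold change at 100 µg/ml was 0.04 (95% interval -0.16 to 0.25, adjusted p = 0.828 in limma), and it was -0.05 without that library. Bnip3, which encodes a mitochondrial protein of mitophagy, was at 78.3, 79.1 and 80.7 FPKM in control cells, 66.0, 65.4 and 79.4 FPKM at 10 µg/ml, and 85.7, 65.2 and 79.4 FPKM at 100 µg/ml. Replicates 1 and 2 at 10 µg/ml and replicate 2 at 100 µg/ml were below the controls, and replicate 1 at 100 µg/ml was above them. Its relative Bnip3l differed from control cells by -0.00089 on the log2 scale at 100 µg/ml (95% interval -0.16 to 0.16).

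P4ha1, the catalytic subunit of collagen prolyl 4-hydroxylase, was at 49.5, 47.8 and 49.0 FPKM in control cells, 51.1, 48.2 and 49.7 FPKM at 10 µg/ml, and 46.0, 44.4 and 46.4 FPKM at 100 µg/ml, below all other libraries by a small margin (log2 fold change -0.10, adjusted p = 0.299 in limma). Mxi1, a MYC antagonist that HIF is known to induce, was at 30.2, 30.7 and 31.3 FPKM in control cells, 31.6, 29.3 and 32.1 FPKM at 10 µg/ml, and 33.6, 32.7 and 33.8 FPKM at 100 µg/ml, above all other libraries (log2 fold change 0.11, adjusted p = 0.258 in limma). Neither difference passed the test. Kdm3a, a histone demethylase, and Ak4, a mitochondrial adenylate kinase, had log2 fold changes of -0.06 each at 100 µg/ml. Ankrd37 had the widest interval of the list (-0.55 to 0.23), and its mean level stands for about 66 fragments per library, a counting error of 12.3%.

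**Figure D5:**
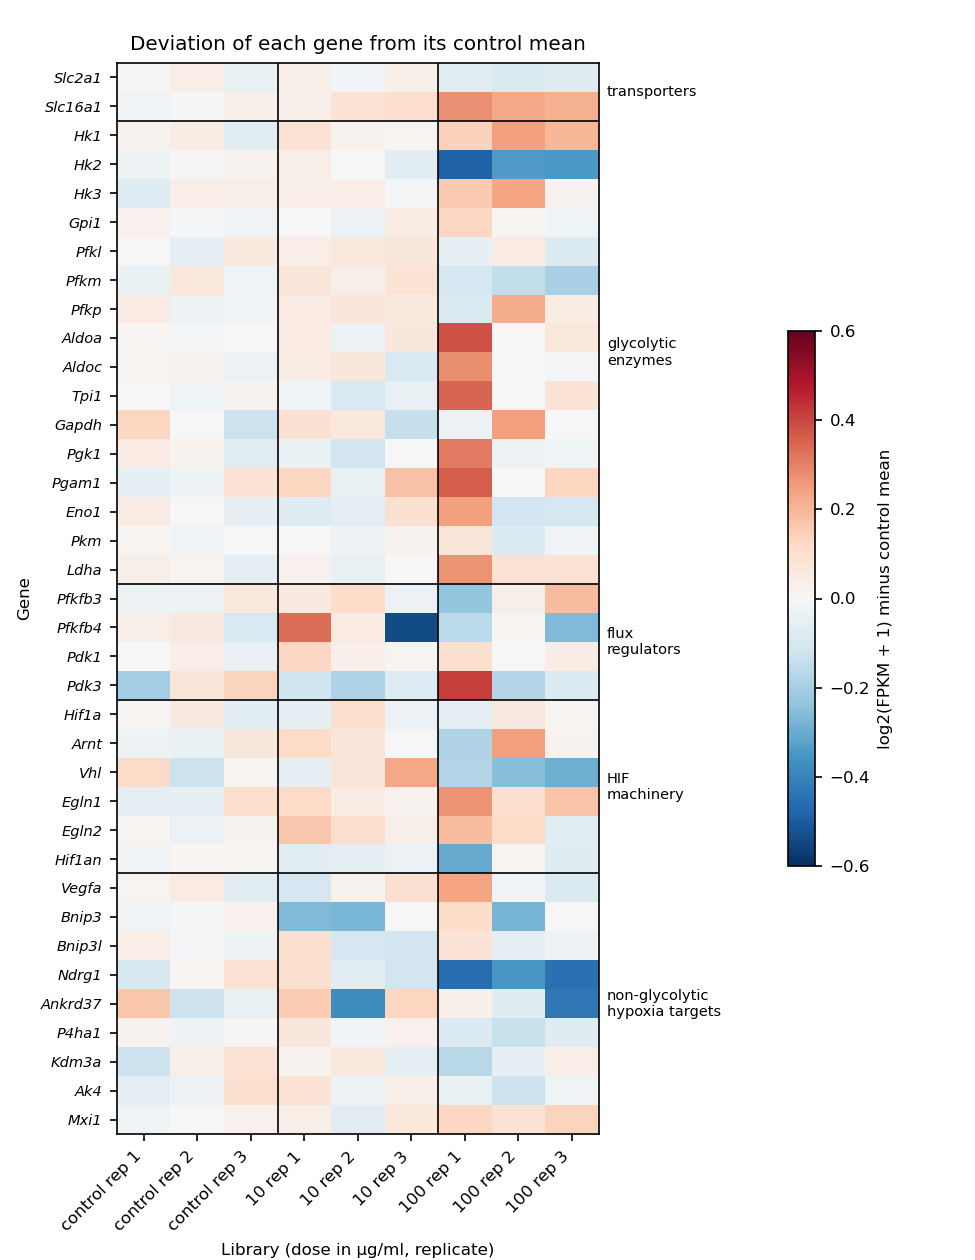
Deviation of log2(FPKM + 1) from the control mean (colour, blue lower and red higher, scale from -0.6 to 0.6) for the 37 genes tested in rows and the 9 libraries in columns. The Hk2 and Ndrg1 rows are blue and the Slc16a1 row is red in all 3 libraries at 100 µg/ml, while the red of Aldoa, Tpi1, Pgk1, Pgam1 and Eno1 is strongest in replicate 1 of that dose.

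The hypoxia targets and the glycolytic enzymes were then set side by side at each dose. At 100 µg/ml the 9 targets tested had a median log2 fold change of -0.06, with 2 above and 7 below 0, beside 0.08 for the 16 glycolytic enzymes, a difference between the medians of -0.13. Within single libraries, the median of the targets minus that of the enzymes was -0.04, -0.0056 and 0.04 in control cells, 0.03, -0.05 and 0.0087 at 10 µg/ml, and -0.12, -0.07 and -0.03 at 100 µg/ml. The values at 100 µg/ml overlapped those of control cells, and the lowest was that of replicate 1. Without this library the difference between the medians at 100 µg/ml was -0.09, and without control replicate 3 it was -0.07, where the median of the targets was -0.02. The targets also differ from the enzymes in transcript length, with a median of 4043 nt. With the correction for GC content and transcript length the medians were -0.04 and 0.09, and the difference was -0.13 as without it.

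At 10 µg/ml, 0 of the 37 genes passed the adjusted threshold in limma, as did 0% of all genes tested. The unadjusted p was under 0.05 for 0 of the 37 genes and for 3.28% of all genes tested. Groups did not overlap for 3 of the 37 genes (Slc16a1 and Egln2 higher, Hif1an lower), against 10.7% of all genes tested (6.14% higher and 4.61% lower). The median log2 fold change was 0.0051 for the glycolytic enzymes and 0.0050 for the hypoxia targets, a difference of -7.5e-05. All 37 genes lay within 0.2 of 0 on the log2 scale, as did 90.3% of all genes tested. The largest change was that of Bnip3, at -0.18 (95% interval -0.42 to 0.06).

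Between the doses, Hk2 was the only 1 of the 37 genes called, where 0.851% of all genes tested were (0.215% higher and 0.636% lower). The libraries at 100 and 10 µg/ml did not overlap for 11 of the 37 genes, 5 with higher and 6 with lower values at 100 µg/ml, against 19.4% of all genes tested (9.37% higher and 9.99% lower). The median log2 fold change was 0.07 for the glycolytic enzymes and -0.07 for the hypoxia targets, and without replicate 1 at 100 µg/ml these were -0.0023 and -0.06. Both this comparison and that with control cells use the same 3 libraries at 100 µg/ml.

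Other genes of these pathways were read from the same fit. Of 42 further genes of glycolysis and its branches, 27 were tested, and at 100 µg/ml 1 was called, Pgm2, which encodes a phosphoglucomutase. Pgm2 rose from 32.0, 32.0 and 30.96 FPKM in control cells to 42.8, 37.2 and 38.9 FPKM, a log2 fold change of 0.31 (adjusted p = 0.0324 in limma). This call held in 10 of the 19 alternatives and was lost without any single control library, any single library at 10 µg/ml or replicate 3 at 100 µg/ml (adjusted p between 0.0612 and 0.121). Slc2a6, which encodes a hexose transporter of lysosomes, had the lowest log2 fold change of this list, at -0.66, without passing the test (adjusted p = 0.109). The median of the list was 0.01. Of 43 further hypoxia targets, 31 were tested and 2 fell, Ddit4 and Lox. Ddit4, whose product restrains mTORC1 under stress, went from 10.7, 11.2 and 11.3 FPKM to 6.001, 4.70 and 5.59 FPKM, a log2 fold change of -0.91 (adjusted p = 0.0132 in limma). Lox, lysyl oxidase, which crosslinks collagen, had a log2 fold change of -0.46 (adjusted p = 0.0188). Both also fell against 10 µg/ml (-0.96 and -0.52, adjusted p = 0.0174 and 0.0215 in limma), calls that held in 14 and 13 of the 19 alternatives and were lost for both genes without replicate 1 at 10 µg/ml (0.0689 and 0.107), without replicate 2 or 3 at 100 µg/ml (0.0628 and 0.0771 for Ddit4, 0.0628 and 0.0958 for Lox) and with only the 6 libraries compared (0.114 and 0.107). Ddit4 also lost it without replicate 3 at 10 µg/ml (0.0794), and Lox without replicate 2 (0.0974). Without control replicate 1, 2 or 3 the adjusted p at 100 µg/ml was 0.0569, 0.0708 and 0.0521 for Ddit4 and 0.0840, 0.0567 and 0.0676 for Lox, and for Lox it was 0.0741 without replicate 3 at 100 µg/ml. In this list of further targets 17 genes were above and 14 below 0 at 100 µg/ml. The unadjusted p was under 0.05 in limma for 13 of the 31, against 19.4% of all genes tested. Libraries did not overlap the controls for 16 of them, 7 higher and 9 lower, against 23.8% of all genes tested. The log2 fold change was within 0.2 of 0 for 18 (58.1%), against 76.0%. For the further glycolytic genes and the further HIF machinery, the unadjusted p was under 0.05 in limma for 6 of 27 and 5 of 15. Libraries did not overlap the controls for 6 and 5 of these, and 70.4% and 73.3% lay within 0.2 of 0. None of these shares is matched for level. Of all genes tested, 2.11% were called against control cells and 0.851% between the doses. The strongly hypoxia-inducible genes Egln3 and Adm were at most 0.0772 and 0.0528 FPKM in all libraries.

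Of 18 further genes of the HIF machinery, 15 were tested, and Hsp90ab1, a chaperone whose clients include HIF-1α, fell at 100 µg/ml from 1971, 1884 and 1824 FPKM to 1345, 1409.8 and 1367 FPKM (log2 fold change -0.46, adjusted p = 0.00765 in limma). Hsp90ab1 also fell against 10 µg/ml (-0.31, adjusted p = 0.0467), and Siah1b, which encodes a ubiquitin ligase, rose there (0.48, adjusted p = 0.0475). The call of Hsp90ab1 against control cells was lost without control replicate 2 (adjusted p = 0.0561 in limma), without the filter on low values (0.0842), with only the 6 libraries compared (0.0760) and after quantile normalization, where the log2 fold change was -0.24 (0.498). Between the doses the calls of Hsp90ab1 and Siah1b held in 5 and 7 of the 19 alternatives, and both were lost without any single library other than replicate 1 at 100 µg/ml (adjusted p up to 0.2005 in limma). Epas1, which encodes HIF-2α, was at 23.7, 23.3 and 23.6 FPKM in control cells, 23.9, 24.4 and 22.3 FPKM at 10 µg/ml, and 16.3, 19.9 and 19.6 FPKM at 100 µg/ml, without passing the test (log2 fold change -0.33, adjusted p = 0.0669 in limma). At 10 µg/ml, 0 of the genes tested in these 3 lists were called in limma, and the unadjusted p was under 0.05 for 0, 1 and 1 of them (Cxcr4 at -0.34 and Hsp90ab1 at -0.15 on the log2 scale).

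The levels of some of the genes are uncertain because near-identical copies exist. A copy was taken as a gene whose transcript matched at 95% identity or more over at least 300 bases on the same strand, and 11 of the 41 genes had one. Pgam1, phosphoglycerate mutase, had a mean of 109 FPKM, and its processed pseudogene Pgam1-ps2, identical over 765 bases, was listed at 296 FPKM. Gapdh, a common reference gene, was listed at 29.9 FPKM with 93 copies that summed to 29.0 FPKM, so its level cannot be read as that of the enzyme's transcript alone. For Eno1, Gpi1, Ak4, Bnip3l and Bnip3 the copies amounted to 42.5%, 35.9%, 78.9%, 47.6% and 24.2% of the gene's own mean. Hk1, Hk2, Hk3, Slc16a1, Ndrg1, Vegfa and Hif1a had 0 copies by this rule.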

How the data were processed

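RNA was measured in 9 BV2 libraries, 3 per group, made with a stranded kit after oligo(dT) selection and grouped by the treatment in the sample labels. The deposited values are FPKM. The authors filtered reads by quality, aligned them with TopHat and estimated FPKM with Cufflinks 2.1.1 on Ensembl release 77, with corrections for fragment bias and multi-mapped reads. FPKM divides out transcript length and depth, yet a bias that follows length within a library remains in it.

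The 41 genes were matched by symbol, and coordinates are those of the deposited table (GRCm38). Transcript length and GC content are those of the longest GENCODE M21 transcript of each gene, which need not be the one expressed. Length classes, the GC and length correction and approximate fragment numbers rest on this choice. FPKM was transformed to log2(FPKM + 1), which understates changes of low genes, and the 11161 genes whose mean reached 1 FPKM were fitted in limma 3.58.1 (R 4.3.3, eBayes with trend, 3 groups in one fit, Benjamini-Hochberg adjustment over all genes tested). Members and lists were chosen with earlier results of these data known, so lists are given by counts and medians without a test. Values in every library are given for Ldha, Vegfa, called genes, genes whose groups did not overlap, and the leading gene of each isoenzyme family, and other genes with such values were picked after these were seen. Further lists are named by calls and extremes. Shares were compared with exact permutation tests (scipy 1.17.1), and copies were found with BLAST 2.17.0. On simulated data with 200 of 11161 genes changed between 100 µg/ml and control, the procedure recovered 33 (16.5%) at a log2 change of 0.3 and 148 (74%) at 0.6, with 2 and 8 unchanged genes called. As alternatives, the pseudocount was 0.1 or 0.01, the filter was dropped or raised to 5 FPKM, and the fit was repeated with median-of-ratios rescaling, quantile normalization, a loess fit on GC content and transcript length (span 0.5), a replicate block, eBayes without trend, the 6 libraries compared only, and leaving out each library. Depth was estimated from the steps of low values, of which 74.3% to 83.8% per library lay within 0.25 of a whole fragment, so it is approximate and covers counting error only.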

Additional observations from a re-analysis of the deposited data

How the results depend on the processing

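The number of genes of the set called at 100 µg/ml against control was 3, and it was 5 with the correction for GC content and transcript length, which added Hk1 and Ldha, and 0 with only the 6 libraries compared. Of all genes tested, 2.11% were called in the fit reported, 7.34% with that correction, 0.197% with the 6 libraries and 4.83% without replicate 1 at 100 µg/ml. The number for the set ranged, with single libraries left out, from 0 (without control replicate 1, 2 or 3) to 3 (without replicate 1 at 100 µg/ml), and it was 2 without replicate 1 at 10 µg/ml and 1 without replicate 2 or 3 at either dose. Between the doses the number was 1, and it was 2 with the GC and length correction, which added Ndrg1 (adjusted p = 0.0321 in limma), 0 with only the 6 libraries compared, and 0 to 1 with single libraries left out, being 1 only without replicate 1 at 100 µg/ml. Of all genes tested, 0.851% were called between the doses in the fit reported and 2.9% with that correction. The share was 0.0538% with the 6 libraries, 1.71% without replicate 1 at 100 µg/ml and between 0.0717% and 0.403% without any other single library. At 10 µg/ml against control the number for the set was 0 in each of the 19 alternatives. Leaving out a library takes away 1 of 9 samples, and the cause of the other changes was not tested.

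Replicate numbers in the labels are shared between the groups. Deviations of same-numbered libraries from their group means correlated between -0.09 and 0.15, and those of differently numbered libraries between -0.17 and 0.14. With 3 libraries per group these values cannot decide whether same-numbered libraries share more than the number. With the replicate block the number of genes called was 1 at 100 µg/ml against control (Hk2, adjusted p = 0.0455 in limma, while Slc16a1 was at 0.0899 and Ndrg1 at 0.0999) and 0 between the doses. The shares of all genes tested called under this block were 0.95% against control and 0.116% between the doses. Lox (0.0530) and Pgm2 (0.0657) against control, and Lox (0.0687), Hsp90ab1 (0.1003) and Siah1b (0.1198) between the doses, also missed the threshold with it.

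With single libraries left out, the median log2 fold change of the glycolytic enzymes lay between 0.013 and 0.12 at 100 µg/ml against control and between -0.0023 and 0.10 between the doses, and that of the hypoxia targets between the doses lay between -0.066 and 0.012. The difference between both medians lay between -0.20 and -0.068 at 100 µg/ml against control and between -0.14 and -0.054 between the doses. It was -0.045 at 10 µg/ml against control after quantile normalization. Without the filter on low values, the median of the targets between the doses was -0.014 and the difference was -0.086, since P4ha2 entered the list. No called gene changed direction. Small changes in the set may have been missed, and how often was not tested. In simulated data with 200 of 11161 genes changed, a log2 change of 0.3 was mostly missed. Those genes were not matched to the set in level or spread, so that share cannot be read as the set's own. For the glycolytic enzymes not called at 100 µg/ml against control, the interval bounds reached from -0.28 to 0.39.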

Other observations

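Hilpda, which encodes an inhibitor of the lipase ATGL and is known to respond to hypoxia, was at 25.5, 25.3 and 23.9 FPKM in control cells, 27.2, 24.8 and 30.8 FPKM at 10 µg/ml, and 42.0, 29.1 and 36.3 FPKM at 100 µg/ml. Plin2, which encodes a lipid droplet coat protein and was picked after its values were seen, was at 78.0, 75.7 and 77.5 FPKM in control cells, 78.4, 74.3 and 79.9 FPKM at 10 µg/ml, and 109, 90.4 and 92.2 FPKM at 100 µg/ml. In both genes the libraries at 100 µg/ml were above all controls, with log2 fold changes of 0.49 and 0.33 that did not pass the threshold (adjusted p = 0.0853 and 0.0606 in limma). Replicate 1 at 100 µg/ml was the highest in both, and without it the log2 fold changes were 0.37 and 0.24 (adjusted p = 0.100 and 0.0262 in limma), while with the correction for GC content and transcript length both passed (0.0108 and 0.00501). Car9, a hypoxia-inducible carbonic anhydrase whose values were also seen first, was at 0.111, 0.204 and 0.0692 FPKM in control cells and 0.649, 0.698 and 0.179 FPKM at 100 µg/ml, below the filter on low values, and was not tested.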
